A study of Sus scrofa with 9 samples.

Results

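The genes described here carry acid and base transport in the intercalated cells of the kidney collecting duct. The set was given as 6 named genes: ATP6V0A4, ATP6V1B1, ATP6V0D2, SLC26A7, FOXI1 and CA2. A gene was measured when the array annotation gave its symbol alone to a probe set, a group of short probes read as 1 value. That held for 5 of the 6, each with 1 probe set, out of 12362 genes named in this way on 19124 probe sets. CA2, the cytosolic carbonic anhydrase, had no probe set with that symbol and was not analysed here. Gene IDs (NCBI) were 100523368 for ATP6V1B1, 100521494 for ATP6V0D2, 100626316 for SLC26A7 and 100511481 for FOXI1. ATP6V0A4 was identified by its symbol only.

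The samples were biopsies of right kidneys from 9 male Yorkshire pigs of 30 kg, with 1 Affymetrix array per animal. Every kidney had 30 min of warm ischemia, meaning no blood flow at body temperature, and was then removed, flushed and returned to its own animal (autotransplantation). NEVKP kidneys (n = 3) were first kept for 8 h on a circuit that pumps warm perfusate through the organ outside the body (normothermic ex vivo kidney perfusion). SCS kidneys (n = 3) were first kept for 8 h in cold preservation fluid with no pump (static cold storage), and No Storage kidneys (n = 3) went back at once. The left kidney was removed in the same operation, so each animal lived on its transplant until the biopsy on post-operative day 3. All groups thus share the warm ischemia, the flush, the transplantation and the loss of the left kidney, and none is an uninjured kidney.

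Intercalated cells set the acid content of urine. The vacuolar proton pump (V-ATPase), a rotary complex with a membrane sector that lets protons through and a cytosolic sector that splits ATP, moves acid across the apical membrane of acid-secreting intercalated cells, and cytosolic carbonic anhydrase supplies the protons together with bicarbonate. Anion exchangers in the basolateral membrane return the bicarbonate to the blood, and in mice the forkhead transcription factor FOXI1 is needed for these cells to form and to express pump and exchanger genes. Loss of ATP6V0A4 or ATP6V1B1 causes distal renal tubular acidosis in humans.

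Values below are log2 intensities as deposited, made by the authors with RMA, so a difference of 1 is a 2-fold difference. Array medians lay between 5.70 and 5.80, the correlation of 2 arrays over all probe sets was 0.974 to 0.991, and the number of arrays, 9, limits the precision. All adjusted p-values come from limma and the Benjamini-Hochberg method over all 19124 probe sets, with a threshold of 0.05. A probe set's level on an array depends on its probes, so levels were compared between groups and not between genes. The biopsies are bulk tissue, in which fewer intercalated cells and less RNA per cell cannot be told apart.

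All 5 measured genes had a lower mean than in No Storage kidneys both in NEVKP kidneys, where 52.3% of all probe sets had a lower mean, and in SCS kidneys, where 48.3% did, and none passed the threshold. The NEVKP log2 differences from No Storage ran from -0.84 for ATP6V0A4 to -0.29 for ATP6V1B1. The SCS differences ran from -1.86 for SLC26A7 to -0.28 for ATP6V1B1. The exchanger gene SLC26A7 and the pump gene ATP6V0A4 had the largest SCS differences and came nearest to the threshold.

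**Figure D1:**
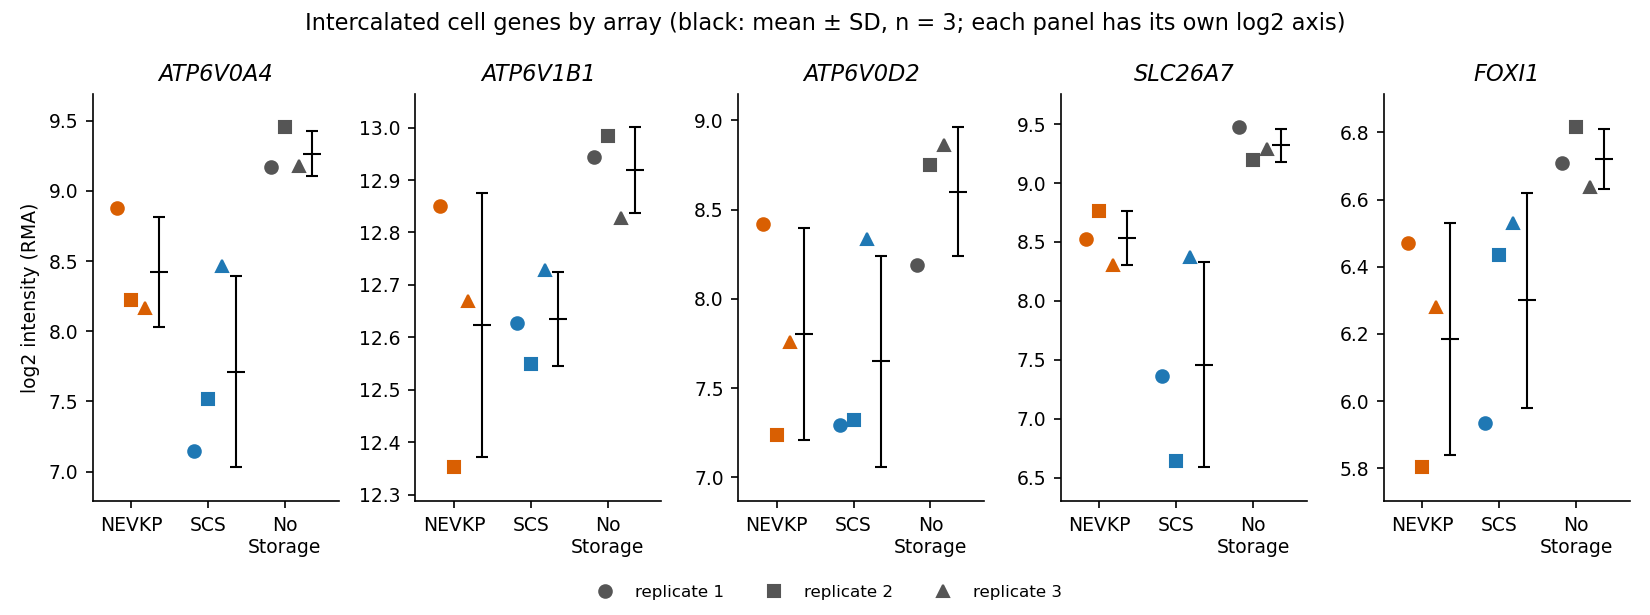
Log2 intensity (vertical axis, a separate scale in each panel) of the 5 measured genes in NEVKP, SCS and No Storage kidneys. Circles, squares and triangles are replicates 1, 2 and 3, and black marks are the mean ± SD (n = 3). For ATP6V0A4, SLC26A7 and FOXI1 all 6 preserved kidneys lie below all 3 No Storage kidneys.

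Among the pump genes, ATP6V0A4 encodes the isoform of the large membrane-sector subunit that is typical of intercalated cells. It measured 8.88, 8.23 and 8.17 in NEVKP kidneys, 7.15, 7.52 and 8.47 in SCS kidneys, and 9.17, 9.45 and 9.18 in No Storage kidneys (replicates 1, 2 and 3). All preserved kidneys lay below all No Storage kidneys, and SCS replicate 3 was the highest of its group and overlapped the NEVKP values. The SCS mean of 7.71 ± 0.68 was 2.94-fold below the No Storage mean of 9.27 ± 0.16 (SD, n = 3 each), a log2 difference of -1.56 (SE 0.31, limma adjusted p = 0.0652). For NEVKP, with a mean of 8.42 ± 0.39 (n = 3), the difference from No Storage was -0.84 (SE 0.31, limma adjusted p = 0.474). Over the whole array only 28 probe sets had a lower SCS difference than ATP6V0A4, and 109 had a lower NEVKP difference.

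The ATP6V0D2 product is an isoform of the subunit that links the membrane sector to the central rotor, and in mice it is also known from osteoclasts and macrophages. It measured 8.42, 7.24 and 7.76 in NEVKP kidneys, 7.29, 7.32 and 8.33 in SCS kidneys, and 8.19, 8.75 and 8.86 in No Storage kidneys. One array in each preserved group lay within the No Storage range, so neither group was separate from it. The log2 difference was -0.79 for NEVKP (SE 0.35, limma adjusted p = 0.541) and -0.95 for SCS (SE 0.35, limma adjusted p = 0.226).

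ATP6V1B1 encodes the ATP-binding subunit isoform of the cytosolic sector that intercalated cells use. Its values were 12.85, 12.35 and 12.67 in NEVKP kidneys, 12.63, 12.55 and 12.73 in SCS kidneys, and 12.94, 12.98 and 12.83 in No Storage kidneys. SCS arrays lay below all No Storage arrays by a narrow margin, while NEVKP replicate 1 lay inside the No Storage range. The log2 difference was -0.29 for NEVKP (95% interval -0.62 to 0.03, limma adjusted p = 0.575) and -0.28 for SCS (95% interval -0.60 to 0.04, limma adjusted p = 0.38). Its values lay close to the highest of any probe set on these arrays, 13.18, and the part of this in its small differences was not tested.

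SLC26A7 encodes a chloride and bicarbonate exchanger that in rodents lies in the basolateral membrane of acid-secreting intercalated cells of the outer medulla. It measured 8.53, 8.77 and 8.31 in NEVKP kidneys, 7.36, 6.64 and 8.37 in SCS kidneys, and 9.47, 9.20 and 9.29 in No Storage kidneys. All preserved kidneys lay below all No Storage kidneys, and SCS replicates 1 and 2 lay below every NEVKP kidney. The SCS mean of 7.46 ± 0.87 was 3.64-fold below the No Storage mean of 9.32 ± 0.14 (SD, n = 3 each), a log2 difference of -1.86 (SE 0.35, limma adjusted p = 0.06). Only 8 of 19124 probe sets had a lower SCS difference. For NEVKP, with a mean of 8.53 ± 0.23 (n = 3), the difference from No Storage was -0.79 (SE 0.35, limma adjusted p = 0.545).

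The transcription factor gene FOXI1 measured 6.47, 5.80 and 6.28 in NEVKP kidneys, 5.93, 6.43 and 6.53 in SCS kidneys, and 6.71, 6.81 and 6.64 in No Storage kidneys. Both preserved groups lay below all No Storage values and overlapped each other. The log2 difference from No Storage was -0.54 in NEVKP (SE 0.20, limma adjusted p = 0.495) and -0.42 in SCS (SE 0.20, limma adjusted p = 0.354). Without SCS replicate 1, the lowest SCS kidney, the SCS difference was -0.24.

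In SCS against No Storage, 0 of 5 genes passed the threshold in limma, where 0.162% of all probe sets did so, 0.0941% on the lower side. At an unadjusted p under 0.05, 3 of the 5 were lower (SLC26A7, ATP6V0A4 and ATP6V0D2), against 7.79% of all probe sets. The arrays did not overlap, with SCS lower, for 4 of the 5, against 11.6% of all probe sets. The median log2 difference of the 5 was -0.95, and that of all probe sets 0.0096. The calls turned on SCS replicate 3: without it, SLC26A7 (-2.32, limma adjusted p = 0.0147) and ATP6V0A4 (-1.93, limma adjusted p = 0.0293) passed, and without any other single array none did. Over the whole array that omission also raised the number of probe sets past the threshold, from 31 to 147 of 19124.

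For NEVKP against No Storage, 0 of 5 genes passed in limma, as for all probe sets (0%). At an unadjusted p under 0.05, 4 of the 5 were lower (all but ATP6V1B1), against 4.4% of all probe sets. The arrays did not overlap, with NEVKP lower, for 3 of the 5, against 8.57% of all probe sets. The median difference was -0.79, and that of all probe sets -0.01. Both comparisons use the same No Storage arrays.

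**Figure D2:**
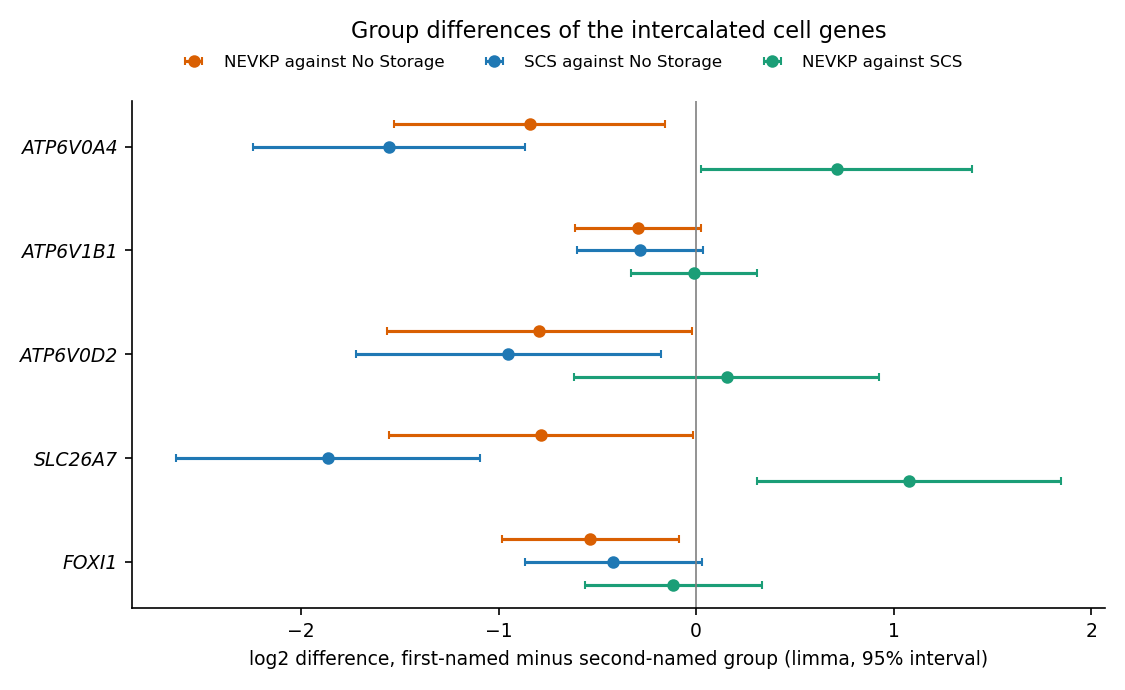
Log2 difference between groups, first-named minus second-named (horizontal axis), for the 5 measured genes, with points for the limma estimate and bars for its 95% interval. Differences from No Storage lie at or below -0.28 in SCS and at or below -0.29 in NEVKP, and the NEVKP against SCS interval lies above 0 for SLC26A7 and ATP6V0A4.

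NEVKP and SCS kidneys were set against each other directly. SLC26A7 was 2.11-fold higher in NEVKP than in SCS, a log2 difference of 1.08 (95% interval 0.31 to 1.85, limma adjusted p = 0.599), and ATP6V0A4 was 1.64-fold higher, a difference of 0.71 (95% interval 0.02 to 1.40, limma adjusted p = 0.655). Single SCS kidneys moved both: SLC26A7 differed by 0.67 without SCS replicate 2, and ATP6V0A4 by 0.43 without SCS replicate 1 and 1.09 without SCS replicate 3. The other genes had differences of 0.16 for ATP6V0D2 (95% interval -0.62 to 0.93), -0.01 for ATP6V1B1 (-0.33 to 0.31) and -0.12 for FOXI1 (-0.56 to 0.33). A higher NEVKP mean was seen for 3 of 5, against 46% of all probe sets. None of the 5 passed in limma, where 0% of all probe sets passed, and 2 of 5 were higher at an unadjusted p under 0.05, against 3.8% of all probe sets. The arrays of the NEVKP and SCS groups overlapped for every one of the 5, while 5.01% of all probe sets were separate with NEVKP higher. Among all 3 groups, the limma F test gave adjusted p-values from 0.154 for SLC26A7 to 0.507 for ATP6V1B1, with 0 of 5 passing, against 0.00523% of all probe sets, and 3 of 5 at an unadjusted p under 0.05, against 12.8%.

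The kidneys within each group were uneven. SCS replicate 3 was the highest SCS kidney for all 5 genes, with a median difference of -0.27 from the No Storage means, while SCS replicates 1 and 2 had medians of -1.31 and -1.28. In NEVKP kidneys the medians were -0.25, -0.92 and -0.84 for replicates 1, 2 and 3. NEVKP replicate 2 was the lowest NEVKP kidney for ATP6V0D2 (-1.36 from the No Storage mean), ATP6V1B1 (-0.57) and FOXI1 (-0.92), and the highest for SLC26A7 (-0.55). Without it, the NEVKP difference from No Storage was -0.51 for ATP6V0D2, -0.34 for FOXI1 and -0.16 for ATP6V1B1, and -0.90 for SLC26A7. In limma's array weights SCS replicate 2 (0.464) and NEVKP replicate 2 (0.565) had the lowest weights, that is, the most scatter about their group over all probe sets.

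The other subunits of the proton pump were taken from a list of 20 genes, of which 16 had a named probe set. In NEVKP against No Storage 13 of the 16 had a lower mean and 3 a higher one (47.7% of all probe sets), and the median difference was -0.21. None passed in limma, and 3 were lower and 1 higher at an unadjusted p under 0.05, against 4.4% and 4.67% of all probe sets. In SCS 14 had a lower mean and 2 a higher one (51.7% of all probe sets), with a median of -0.39. None passed in limma, and 9 were lower and 1 higher at that level, against 7.79% and 7.75% of all probe sets. ATP6V1C2, an isoform found in kidney and lung, had the lowest SCS difference of the 16, at -1.16 (SE 0.33, limma adjusted p = 0.137), with -0.91 in NEVKP (SE 0.33, limma adjusted p = 0.47). ATP6V1G3, a kidney isoform singled out after its values were seen, differed by -0.48 in NEVKP and -0.75 in SCS.

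TCIRG1 was the pump gene that was higher at an unadjusted p under 0.05 in both NEVKP and SCS kidneys. It encodes the isoform of the large membrane subunit that osteoclasts use. It measured 6.21, 6.42 and 6.70 in NEVKP kidneys, 6.67, 6.55 and 6.55 in SCS kidneys, and 6.20, 5.98 and 5.98 in No Storage kidneys. The preserved kidneys lay above the No Storage kidneys, with differences of 0.40 in NEVKP (SE 0.15, limma adjusted p = 0.476) and 0.54 in SCS (SE 0.15, limma adjusted p = 0.126). Of the 12 listed myeloid and osteoclast markers 9 were measured. Means above No Storage were seen for 8 of 9 in NEVKP, against 47.7% of all probe sets, and for 7 of 9 in SCS, against 51.7%. SPI1, a myeloid transcription factor, differed by 0.93 in NEVKP (limma adjusted p = 0.299) and 1.03 in SCS (limma adjusted p = 0.0513), and the adaptor gene TYROBP by 0.76 and 0.52. The complement gene C1QA differed by 0.43 in NEVKP and -0.60 in SCS, and the osteoclast phosphatase gene ACP5, named after its values were seen, by -0.19 and -0.06. The part of these genes in the TCIRG1 difference was not tested.

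**Figure D3:**
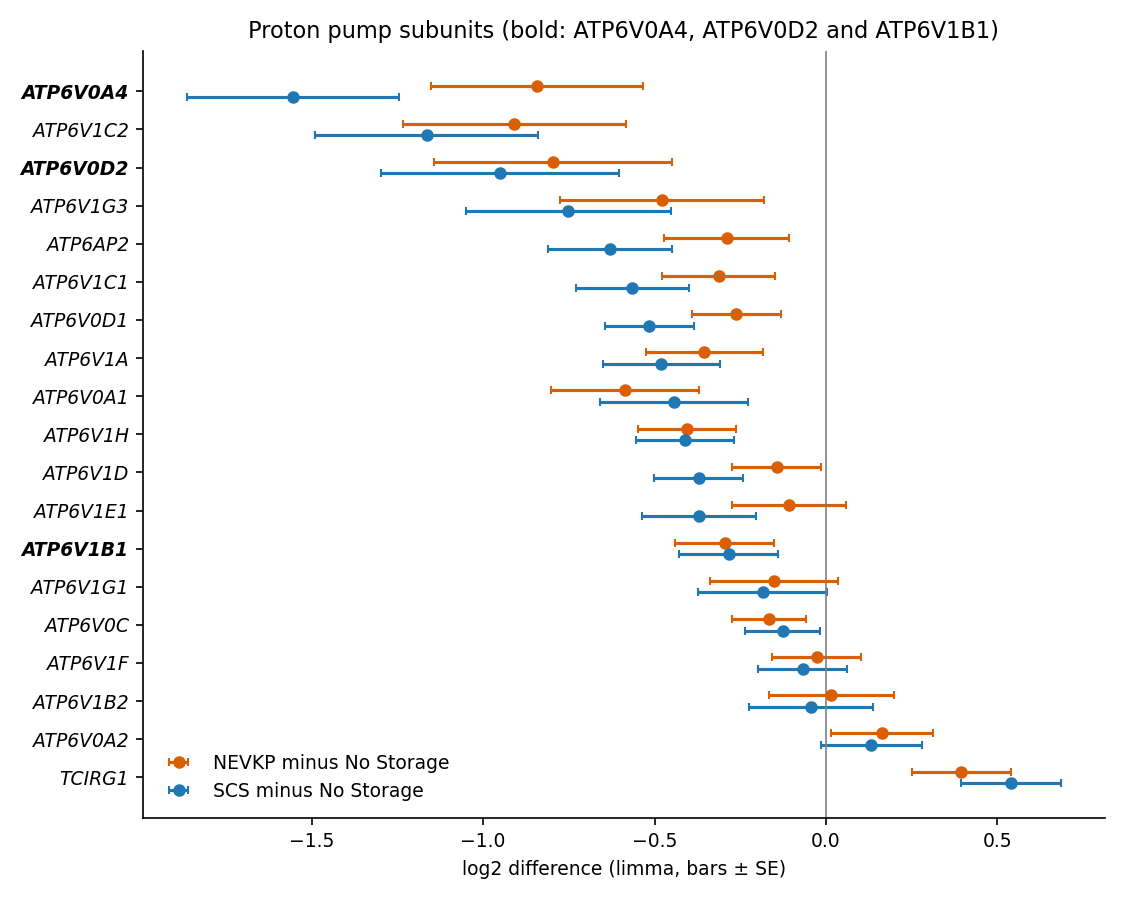
Log2 difference from No Storage (horizontal axis) of the measured proton pump genes in NEVKP and in SCS kidneys, ordered by the SCS difference, with bars of ± SE from limma. ATP6V0A4 (-1.56 in SCS) lies at the top, ATP6V1B2 lies near 0 and TCIRG1 (0.54 in SCS) at the bottom.

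Each of the 3 intercalated-cell isoforms has a paralog that other cells use. ATP6V0A1 differed from No Storage by -0.59 in NEVKP and -0.44 in SCS, ATP6V0D1 by -0.26 and -0.52, and ATP6V1B2 by 0.02 and -0.04. The log2 ratio of ATP6V0A4 to ATP6V0A1 within an array differed by -1.11 between SCS and No Storage, with separate arrays (two-sided exact permutation test, p = 0.1, the smallest that 3 arrays against 3 allow). Between NEVKP and SCS the same ratio differed by 0.85, again with separate arrays (exact permutation p = 0.1). The remaining 7 of the 9 paralog comparisons had overlapping arrays and exact permutation p-values of 0.3 to 0.9, and adjusted over the 9 all lay between 0.386 and 0.9. With 3 arrays a group this test cannot reach 0.05.

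Of 26 further genes of acid and base transport, 17 were measured. Means were lower for 12 of 17 in NEVKP, against 52.3% of all probe sets, and for 13 of 17 in SCS, against 48.3%, with medians of -0.55 and -0.43 and none past the threshold in limma. At an unadjusted p under 0.05, 7 were lower and 1 higher in NEVKP, against 4.4% and 4.67% of all probe sets. In SCS 6 were lower and 0 higher at that level, against 7.79% and 7.75%. RHCG, an ammonia transporter of the collecting duct, measured 8.06, 6.58 and 7.43 in NEVKP kidneys, 6.35, 6.61 and 7.83 in SCS kidneys, and 8.37, 8.45 and 8.73 in No Storage kidneys. All its preserved arrays lay below all its No Storage arrays, and its differences were -1.16 in NEVKP (SE 0.41, limma adjusted p = 0.463) and -1.58 in SCS (SE 0.41, limma adjusted p = 0.118). The related transporter gene RHBG differed by -1.39 in NEVKP and -1.45 in SCS, a gene named after its values were seen.

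The anion exchanger gene SLC4A1, whose product returns bicarbonate to the blood from acid-secreting intercalated cells, differed by -0.75 in NEVKP (SE 0.31, limma adjusted p = 0.524) and by -0.75 in SCS (SE 0.31, limma adjusted p = 0.279). It is also the main membrane protein of red cells. HBB, the beta globin gene, was dim on all arrays, at 3.19 to 3.73 in NEVKP, 3.05 to 3.68 in SCS and 3.46 to 3.90 in No Storage kidneys. Dim means below 3.92, the value under which 25% of probe set means lay. Of the 10 red cell markers listed, 4 were measured and the 3 other than SLC4A1 (HBB, ALAS2 and EPB42) were dim. Whether these dim probe sets report red cell RNA at all was not tested, and neither was the part of red cells in the SLC4A1 values.

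CA4, a membrane-bound carbonic anhydrase, differed by -0.62 in NEVKP (SE 0.21, limma adjusted p = 0.444) and -0.86 in SCS (SE 0.21, limma adjusted p = 0.104). SLC26A6, an anion exchanger of proximal tubule, had the opposite order from SLC26A7, with -0.97 in NEVKP (SE 0.22, limma adjusted p = 0.342) and -0.43 in SCS (SE 0.22, limma adjusted p = 0.372). The sodium bicarbonate cotransporter gene SLC4A7, named after its values were seen, had means of 7.92 in NEVKP and 7.46 in SCS kidneys, against 6.49 in No Storage kidneys.

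Other markers of intercalated cells were listed with earlier results of these data known. Of the 22 listed, 16 were measured, 5 of which are also on the pump, acid-base or red cell lists. Lower means were seen for 14 of 16 in NEVKP and 15 of 16 in SCS (52.3% and 48.3% of all probe sets), with medians of -0.47 and -0.75. None passed in limma. At an unadjusted p under 0.05, 7 were lower and 1 higher in NEVKP, against 4.4% and 4.67% of all probe sets. In SCS 11 were lower and 0 higher at that level, against 7.79% and 7.75%. The SCS arrays lay below all No Storage arrays for 11 of 16, against 11.6% of all probe sets. This was not particular to these markers. It also held for 10 of the 16 other pump subunits, and for markers of other tubule cells given below. All 16 had means above the dim limit of 3.92, which is not a test of detection. The lowest were P2RY14 at 4.95 and INSRR (named after its values were seen) at 4.96. SLC26A4, which marks base-secreting cells, had no named probe set. SLC4A9, on the same list and named after its values were seen, was measured and was not clearly lower. It differed by 0.24 in NEVKP (SE 0.29) and -0.04 in SCS (SE 0.29), with arrays that overlapped No Storage in both.

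TMEM213, an intercalated cell marker, measured 8.27, 8.34 and 8.08 in NEVKP kidneys, 6.76, 7.24 and 7.93 in SCS kidneys, and 8.67, 8.53 and 8.74 in No Storage kidneys. The SCS kidneys were below all others, with a difference of -1.34 from No Storage (SE 0.25, limma adjusted p = 0.0595), while NEVKP differed by -0.42 (SE 0.25, limma adjusted p = 0.648). AQP6, an aquaporin of intercalated cell vesicles in rats, differed by -0.30 in NEVKP (limma adjusted p = 0.7) and -0.91 in SCS (limma adjusted p = 0.0946). For NEVKP replicate 2, TMEM213 and SLC26A7 were the highest of the NEVKP kidneys, while RHCG and FOXI1 were the lowest. P2RY14, a receptor for UDP-glucose on intercalated cells in mice, lay on the other side, with 0.59 in NEVKP (SE 0.15, limma adjusted p = 0.395) and 0.14 in SCS (limma adjusted p = 0.73).

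**Figure D4:**
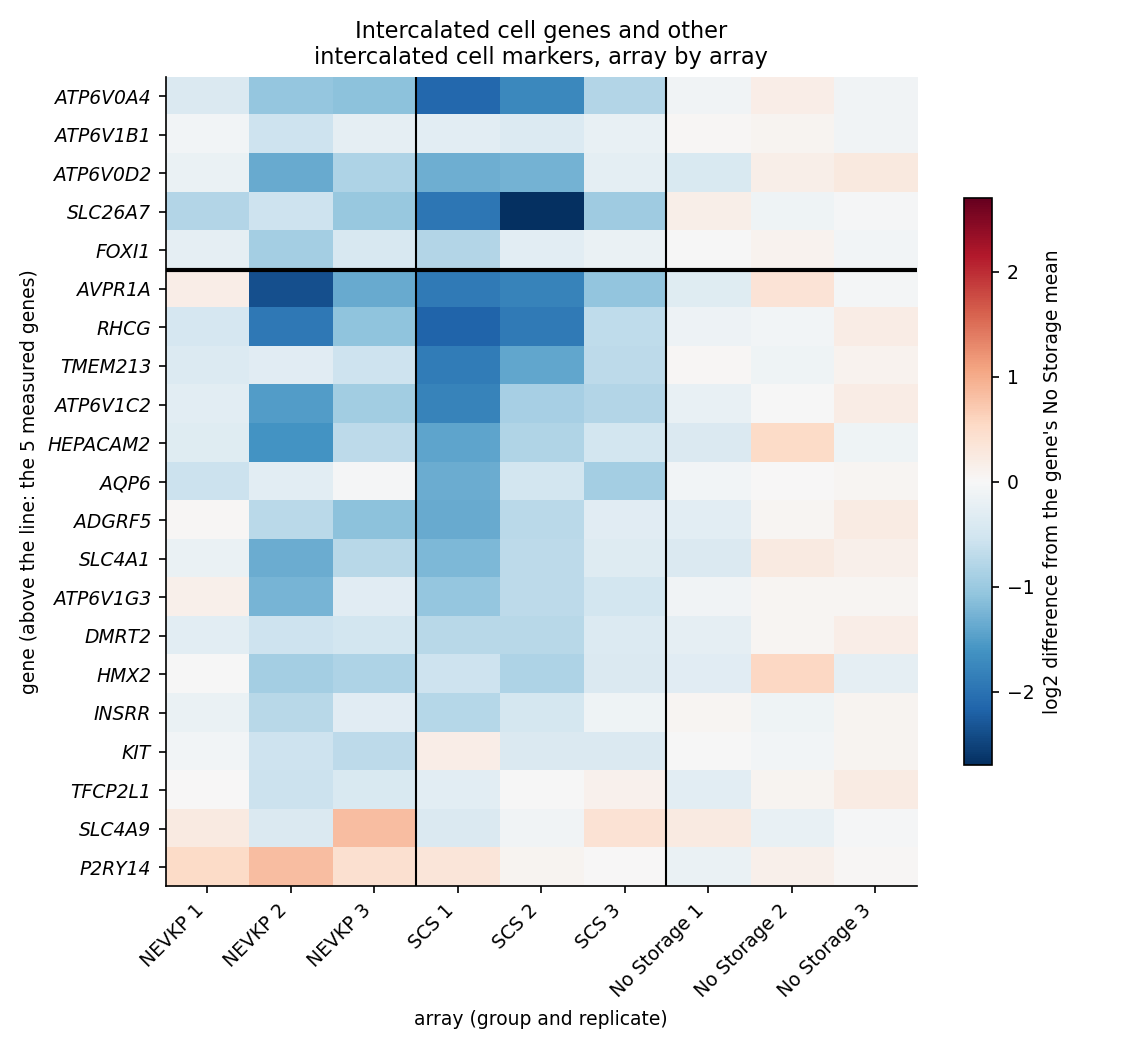
Log2 difference of each array from the gene's No Storage mean (colour, blue lower and red higher) for the 5 measured genes above the line and, below it, 16 other intercalated cell markers ordered by the SCS difference, with a column for each array. SCS replicates 1 and 2 and NEVKP replicate 2 hold the darkest blue cells, and SLC26A7 in SCS replicate 2 (-2.68) is the lowest of the 5 genes.

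Markers of neighbouring cell types were listed as well. Of 14 principal cell markers 13 were measured. Means were lower for 8 of 13 in NEVKP, against 52.3% of all probe sets, and for 10 of 13 in SCS, against 48.3%. The medians were -0.14 and -0.44, and none passed the threshold in limma. The SCS arrays lay below all No Storage arrays for 5 of 13, against 11.6% of all probe sets. SCNN1A, which encodes an epithelial sodium channel subunit, differed by -0.55 in NEVKP and -0.73 in SCS (limma adjusted p = 0.342 and 0.0529), and SCNN1G by -0.98 and -0.72. HSD11B2, the enzyme that shields the mineralocorticoid receptor from cortisol, differed by -0.55 in NEVKP and -1.43 in SCS, and AQP2, the vasopressin-regulated water channel, by -0.33 and -1.09. At an unadjusted p under 0.05, 2 of the 13 were lower and 0 higher in NEVKP, against 4.4% and 4.67% of all probe sets. In SCS 4 were lower and 1 higher at that level, against 7.79% and 7.75%. The higher one was the potassium channel subunit gene KCNE1, at 0.18 in NEVKP and 0.58 in SCS, and AQP3 (0.42) and FXYD4 (0.40) had higher means in NEVKP, all named after their values were seen. The NEVKP kidneys were uneven for both AQP3 (7.46, 9.06 and 7.89, SE 0.40) and FXYD4 (6.56, 10.31 and 9.16, SE 0.73). Replicate 1 lay below the No Storage mean in both (7.71 and 8.28).

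Among 10 markers of Henle's loop and distal tubule 6 were measured. All 6 had a lower mean in SCS, against 48.3% of all probe sets, but only 2 in NEVKP, against 52.3%. UMOD (uromodulin) differed by 0.19 in NEVKP and -2.21 in SCS, CALB1 by -0.34 and -1.58, and SLC12A1 by 0.32 and -0.78. The rest of the list, named after their values were seen, was less uniform. TRPM6 had the reverse order, at -0.79 in NEVKP and -0.21 in SCS. PVALB differed by 0.61 and -0.01, and KCNJ1 by 0.03 and -0.51. Of 11 proximal tubule markers 7 were measured, with lower means for 6 in NEVKP and 6 in SCS, against 52.3% and 48.3% of all probe sets. MIOX differed by -0.29 and -1.33, SLC13A3 by -0.73 and -1.07, and HNF4A by -0.73 and -0.43. The phosphate transporter gene SLC34A1, named after its values were seen, was the exception, at 0.29 in NEVKP and 1.02 in SCS, where all its arrays lay above the No Storage arrays (limma adjusted p = 0.193). Its probe set was low, with a mean of 4.87 over all arrays, below the median of 5.75 of all probe set means. How well this probe set reports the gene was not tested. None of these genes passed in limma. At an unadjusted p under 0.05, 3 of the 6 loop and distal markers were lower in SCS, and 0 in NEVKP. Of the 7 proximal markers 3 were lower in each group, and 1 was higher in SCS. Shares of all probe sets were 7.79% lower and 7.75% higher in SCS, and 4.4% lower in NEVKP. SCS arrays lay below all No Storage arrays for 4 of 6 loop and 6 of 7 proximal markers, against 11.6% of all probe sets.

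Summed linear intensities put the lists side by side, as percentages of the No Storage mean. The 5 measured genes together stood at 64.9% to 91.0% in NEVKP, 68.5% to 82.9% in SCS and 95.01% to 104% in No Storage kidneys, a sum in which ATP6V1B1 has most weight. The other intercalated cell markers stood at 57.4% to 93.3% in NEVKP, 58.1% to 80.6% in SCS and 87.4% to 110% in No Storage kidneys. Principal cell markers ranged from 68.1% to 127% in NEVKP, 49.9% to 75.5% in SCS and 95.3% to 103% in No Storage kidneys. The loop and distal list ranged from 86.4% to 146% in NEVKP, 31.6% to 55.4% in SCS and 77.4% to 121% in No Storage kidneys. Proximal tubule markers ranged from 46.9% to 86.3% in NEVKP, 52.4% to 71.8% in SCS and 91.6% to 108% in No Storage kidneys, and myeloid and osteoclast markers from 114% to 179%, 110% to 115% and 97.2% to 106%. NEVKP replicate 2 had the highest principal cell, loop and myeloid sums and the lowest proximal tubule and intercalated sums of the NEVKP kidneys. Its principal cell sum mixed higher and lower markers. FXYD4 measured 10.31 there (No Storage mean 8.28), while HSD11B2 measured 10.06 (10.43) and SCNN1G 7.67 (8.86). KCNJ1, named after its values were seen, measured 10.69 (10.10) and counts in both the principal cell and the loop sums. The part of the listed markers in the differences of the 5 genes was not tested.

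**Figure D5:**
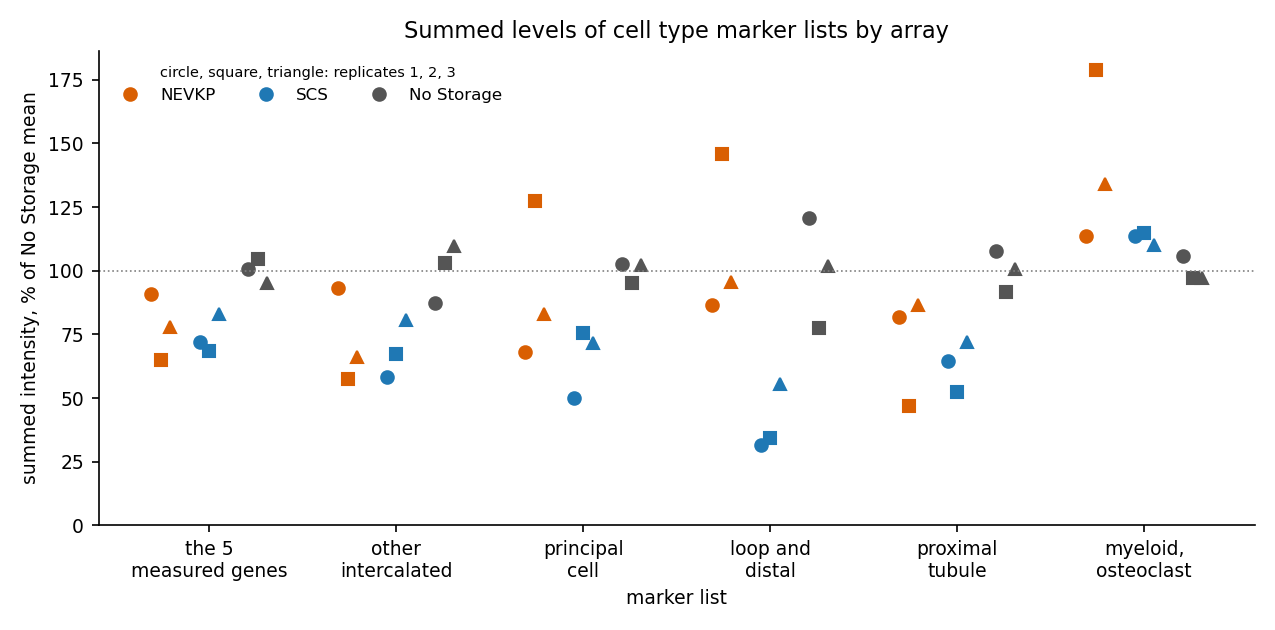
Summed linear intensity of 6 gene lists (horizontal axis) in each array, as a percentage of the No Storage mean of the list (vertical axis, from 0), with circles, squares and triangles for replicates 1, 2 and 3. The loop and distal sums of SCS replicates 1 and 2 (31.6% and 34.4%) are the lowest shown, and NEVKP replicate 2 has the highest loop and myeloid sums.

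Notch signals steer collecting duct cells toward the principal fate in mice and oppose FOXI1 there. Of 15 Notch genes 9 were measured, with medians of 0.08 in NEVKP and 0.01 in SCS, and none passed in limma. At an unadjusted p under 0.05, 0 differed in NEVKP, where 4.4% of all probe sets were lower and 4.67% higher. In SCS 2 of the 9 were higher at that level, against 7.75% of all probe sets. These were the receptor gene NOTCH2 (0.52, limma adjusted p = 0.236) and the coactivator gene MAML1 (0.34, limma adjusted p = 0.26). In NEVKP these differed by 0.39 and 0.21. The ligand gene JAG1 differed by 0.22 in NEVKP and 0.12 in SCS.

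Genes with the pattern most like that of the 5 over the 9 arrays were found by Pearson correlation with their mean profile, as a description, since all share the same arrays and group structure. High correlations at the top are usual when 11012 genes are searched over 9 arrays. The 8 highest were HEXA (0.983), PSEN2 (0.978), RHCG (0.970), ACAA2 (0.970), ACADS (0.963), ASPDH (0.961), ALG1 (0.960) and TGOLN2 (0.958). HEXA is a lysosomal hexosaminidase subunit, PSEN2 a gamma-secretase subunit, and ACAA2 and ACADS are enzymes of fatty acid oxidation. RHCG was the only one of these 8 on the intercalated cell or acid-base lists.

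Taken singly, the 5 genes had different nearest genes. For ATP6V0A4 these were PSEN2 (0.978) and PDLIM2 (0.962), and for SLC26A7 TRAPPC3 (0.994) and LGR4 (0.969). ATP6V0D2 was nearest to SMPDL3A (0.976) and SLC31A2 (0.968), and ATP6V1B1 to the fatty acid genes ACADL (0.976) and SLC27A4 (0.969). FOXI1 was nearest to SLC9A3R1 (0.973), a scaffold protein of epithelial membranes, and OPLAH (0.957).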

How the data were processed

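The authors deposited log2 intensities per probe set, made with RMA (background correction, scaling between arrays, summary per probe set), and used limma, per the submitters' processing notes. The labels' protocols give total RNA, biotinylated cRNA and Affymetrix arrays. Array type, filters and build: not given in the sources used here.

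The model, fitted to 19124 probe sets on 9 arrays by limma's moderated statistics (version 3.58.1, R 4.3.3, defaults), had the group as its only factor, with 6 residual and 4.12 prior degrees of freedom. The fit was also run on simulated data with equal noise on every array, unlike the uneven arrays here, and no result rests on that run. Symbols came from the array's annotation: 13323 probe sets had 1 symbol, 357 several and 5444 none. The brightest probe set stood for a gene. Paralog ratios were compared by exact permutation with scipy 1.17.1.

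The members and lists were chosen with earlier results of these data known. Named genes are the members, fixed markers, the 3 genes per list with the smallest F test p, and the 8 genes (2 per member) of highest correlation. The others named are marked as chosen after their values were seen. No promoter sequences were used here. Each array is a different animal, and arrays were treated as independent. Alternatives were leaving out each array, a fit on only the groups being compared, averaged probe sets, arrays centred on their medians, dropping the dimmest 25%, array weights, a prior both trended and robust, and a replicate block.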

Additional observations from a re-analysis of the deposited data

How the results depend on the processing

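Over 16 alternatives per comparison, 15 for the F test, the number of the 5 genes past the threshold stayed at 0 in NEVKP against No Storage and in NEVKP against SCS. In SCS against No Storage it was 0 to 2 on omission of single arrays, and in the F test 0 to 1, the highest without SCS replicate 3 in both, and 0 under every other alternative run. The median log2 difference of the 5, on omission of single arrays, lay between -1.29 and -0.77 for SCS against No Storage, -0.79 and -0.51 for NEVKP against No Storage, and -0.12 and 0.50 for NEVKP against SCS, so the sign of the last depends on single arrays. Deviations of same-numbered arrays correlated at -0.14 to 0.13, over 0.1 in 1 of 9 pairs, so the numbers were not taken to pair kidneys. With the replicate number as a block (replicate block, 0 genes past the threshold) the medians were the same, -0.95, -0.79 and 0.16, and SLC26A7 and ATP6V0A4 had limma adjusted p of 0.0789 and 0.0969 in SCS. The directions against No Storage held for all 5 genes under all alternatives run. For NEVKP against SCS they held for SLC26A7 (0.67 to 1.53) and ATP6V0A4 (0.43 to 1.09). They changed for ATP6V1B1 (0.034 with array weights, -0.12 to 0.13 on omission of single arrays), ATP6V0D2 (-0.15 to 0.50) and FOXI1 (-0.30 to 0.076), and the cause was not tested. Over the whole array the number past the threshold in SCS against No Storage ran from 0 to 158 instead of 31 (158 without NEVKP replicate 2, 147 without SCS replicate 3, and 0 to 2 without any other single array), so the background share moves with it. With all arrays in the fit, the SCS difference of SLC26A7 stayed short of the threshold. Its SD within SCS was 0.87 (n = 3), and the part of this spread in that result was not tested.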
